A study of Mus musculus with 8 samples.

Results

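The comparison described here set mouse embryonic stem cell lines with 3 mutant alleles of histone H3.3 against lines with 2, with no wildtype library in the fit. Its members were all 16149 genes in the authors' deposited table of that contrast, of 16896 genes found in any of the series' 4 tables. Of these, 13141 carried an adjusted p, and 928 (7.06%) passed an adjusted p of 0.05. The calls divided into 574 genes higher in the lines with 3 mutant alleles (4.37%) and 354 lower (2.69%).

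H3.3 is the histone H3 variant that chaperones place into chromatin outside DNA replication, mostly at active genes, regulatory elements and some silent repeats. In the mouse it is encoded by H3f3a and H3f3b, which give the same protein. Lysine 122 lies where the nucleosome core meets DNA, and K122A replaces it with alanine, which cannot be acetylated. TT-seq draws out the RNA made during a short pulse of 4-thiouridine (4sU), so its counts follow transcription more closely than the counts of total RNA do.

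All lines were derived from ES-E14TG2a (E14), an embryonic stem cell line of male origin, and were pulsed with 500 nM 4sU for 5 min. The single-targeted group held 2 lines, where A is the alanine allele: H3f3a A/A H3f3b WT/WT, mutant at the first gene, and H3f3a WT/WT H3f3b A/A, mutant at the other. The dual-targeted group held 3 lines, namely clone 1 and clone 2 of H3f3a A/A H3f3b WT/A and 1 line of H3f3a WT/A H3f3b A/A, called the H3f3b A/A dual line here. Each line was profiled once, so the spread within a group is a spread between lines, and a line's history cannot be told apart from its number of mutant alleles. Of the media in the labels, LIF alone or LIF plus 2i (inhibitors of GSK3 and of MEK), the one used for these libraries is not stated. Wildtype cells (3 libraries) appear below only as a level, or as a separate deposited comparison, beside the others. Against wildtype 20.9% of tested genes were called in dual-targeted lines and 2.96% in single-targeted lines, and these comparisons share libraries with the one described.

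Values per library were not analysed here, so the depth of each library is unknown. Each fold change below is the log2 fold change of the authors' deposited table, dual-targeted over single-targeted and shrunken towards 0, with its standard error (SE). Levels are mean normalized counts of a group, rebuilt by subtraction from the mean counts of the 4 tables. They carry no error, they give the 2 clones and the 2 single-targeted lines as means, and they are not divided by gene length, so they serve to compare groups and not genes. All 885 called genes that could be checked had the same direction in the rebuilt means as in the table. Both come from the same libraries, so this checks the subtraction and is no independent support for the calls.

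The 4 promoters below are shown because each belongs to a gene that moved in a group described further on and holds the motif that background knowledge ties to that group. They are RefSeq sequences of GRCm38.p6, 250 bases before to 50 bases after the RefSeq start of the gene, on the strand of the gene. For these 4 genes that start differs from the start of the GENCODE gene model, which gives the positions elsewhere, and the Socs3 window lies wholly inside its GENCODE model. Capitals mark the match to the motif on either strand.
Hspa5, chr2:34771840-34772139, plus strand, endoplasmic reticulum stress response element (CCAAT, 9 bases of any kind, CCACG): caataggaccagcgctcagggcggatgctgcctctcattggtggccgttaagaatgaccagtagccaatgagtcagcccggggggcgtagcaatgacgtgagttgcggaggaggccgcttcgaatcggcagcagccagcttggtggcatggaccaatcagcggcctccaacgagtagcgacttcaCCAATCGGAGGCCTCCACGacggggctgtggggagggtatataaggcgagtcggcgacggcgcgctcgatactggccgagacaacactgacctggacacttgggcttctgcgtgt
Hsph1, chr5:149636287-149636586, minus strand, heat shock element (GAA, TTC and GAA with 2 bases of any kind between neighbours): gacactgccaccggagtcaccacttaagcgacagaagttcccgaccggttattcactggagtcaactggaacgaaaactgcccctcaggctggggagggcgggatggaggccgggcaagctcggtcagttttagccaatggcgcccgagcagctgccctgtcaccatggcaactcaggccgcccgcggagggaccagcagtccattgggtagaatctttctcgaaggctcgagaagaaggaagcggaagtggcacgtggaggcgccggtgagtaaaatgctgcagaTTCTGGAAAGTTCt
Socs3, chr11:117969317-117969616, minus strand, STAT site TTCNNNGAA: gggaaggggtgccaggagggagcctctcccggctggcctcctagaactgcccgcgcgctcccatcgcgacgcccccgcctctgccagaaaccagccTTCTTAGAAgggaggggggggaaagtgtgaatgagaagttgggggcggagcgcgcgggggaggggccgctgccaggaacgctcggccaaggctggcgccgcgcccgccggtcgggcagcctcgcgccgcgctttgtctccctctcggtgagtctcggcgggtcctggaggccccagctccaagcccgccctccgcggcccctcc
Chac1, chr2:119350992-119351291, plus strand, the C/EBP-ATF element bound by ATF4, TGATGNAA: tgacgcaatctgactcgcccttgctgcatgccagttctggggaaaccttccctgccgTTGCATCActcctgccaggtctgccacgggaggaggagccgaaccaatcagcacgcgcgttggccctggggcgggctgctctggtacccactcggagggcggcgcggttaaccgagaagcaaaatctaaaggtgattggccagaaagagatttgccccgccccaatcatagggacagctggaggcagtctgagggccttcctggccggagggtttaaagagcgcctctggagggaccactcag
Searched on both strands, the first motif stood in 0.137% of 27025 gene promoters of this length, the heat shock element in 0.662%, the STAT site in 9.55% and the ATF4 element in 4.51%. A match is a description of letters in a window and not evidence of binding.

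The targeted genes come first, although their levels do not check the labels, since a changed codon can leave the amount of RNA as it was. H3f3a (chromosome 1, 180800832 to 180813943, GRCm38 build) differed by a log2 fold change of 0.36 ± 0.22 in the authors' deposited table (adjusted p = 0.143). Rebuilt levels of H3f3a were 735 normalized counts in single-targeted lines, 1052 in the clones and 948 in the H3f3b A/A dual line. H3f3b (chromosome 11, 116021912 to 116027962) had 0.03 ± 0.25 in the authors' deposited table (adjusted p = 0.758). Behind that value the rebuilt level of H3f3b was 2525 in wildtype and 1873 in single-targeted lines. It was 4832 in the clones and 362 in the H3f3b A/A dual line, so the dual-targeted lines lay on both sides of the wildtype and single-targeted means. The single-targeted mean pools an H3f3b WT/WT line with an H3f3b A/A line, so it stands for neither of them. Without the H3f3b A/A dual line, the rebuilt log2 ratio of H3f3b was 1.37, with no test. Of 18 genes of H3.3 and its deposition chaperones, 4 rose, 0 fell (1 and 0 with a trend on gene length taken out), and the median log2 fold change was 0.15. Those were Asf1a (0.57 ± 0.21, adjusted p = 0.0208), Chaf1a (0.59 ± 0.23, adjusted p = 0.023), Mcm2 (0.66 ± 0.27, adjusted p = 0.027) and Nap1l1 (0.52 ± 0.23, adjusted p = 0.0454) per the authors' deposited table. Asf1a and Chaf1a encode histone chaperones, Mcm2 a helicase subunit that also binds histones, and Nap1l1 a nucleosome assembly protein.

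Defining markers of embryonic stem cells had high counts in these lines. Over the 5 libraries the mean normalized count in the authors' deposited table was 2646 for Nanog, 2361 for Sox2, 3585 for Zfp42, 1017 for Dppa4 and 2821 for Tdgf1. These 5 did not pass the test, while 4 other genes of the core pluripotency list, Pou5f1, L1td1, Lin28a and Sall4, rose and are given further on. The 5 had log2 fold changes of -0.15 ± 0.17 for Nanog, 0.42 ± 0.23 for Sox2, 0.07 ± 0.14 for Zfp42, 0.21 ± 0.19 for Dppa4 and 0.30 ± 0.22 for Tdgf1 in the authors' deposited table. Several markers of other cell types had no adjusted p, so their counts are given over the members that had one. Calls were made at 1 of 9 neural ectoderm genes (Tubb3), 1 of 5 fibroblast and feeder genes (Vim), 0 of 1 mesoderm gene, 0 of 4 endoderm genes and 0 of 5 trophectoderm genes in the authors' DESeq2 fit, beside 7.06% of all genes tested. The measured members of the last 3 lists numbered 4, 10 and 8. At an unadjusted p under 0.05 these 3 lists held 0, 0 and 3 genes. Of 3 measured genes of the 2-cell-like state 1 had an adjusted p and was called, Eif1a, a translation initiation factor gene that is also expressed widely. The others had mean counts of at most 27.3 and no adjusted p, and the highest log2 fold change among them was 4.49. In such bulk libraries, more cells of a type and more RNA per cell cannot be told apart. Tubb3, a neuronal tubulin, had a rebuilt level of 74.7 in single-targeted lines, 198 in the clones and 176 in the H3f3b A/A dual line.

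**Figure D1:**
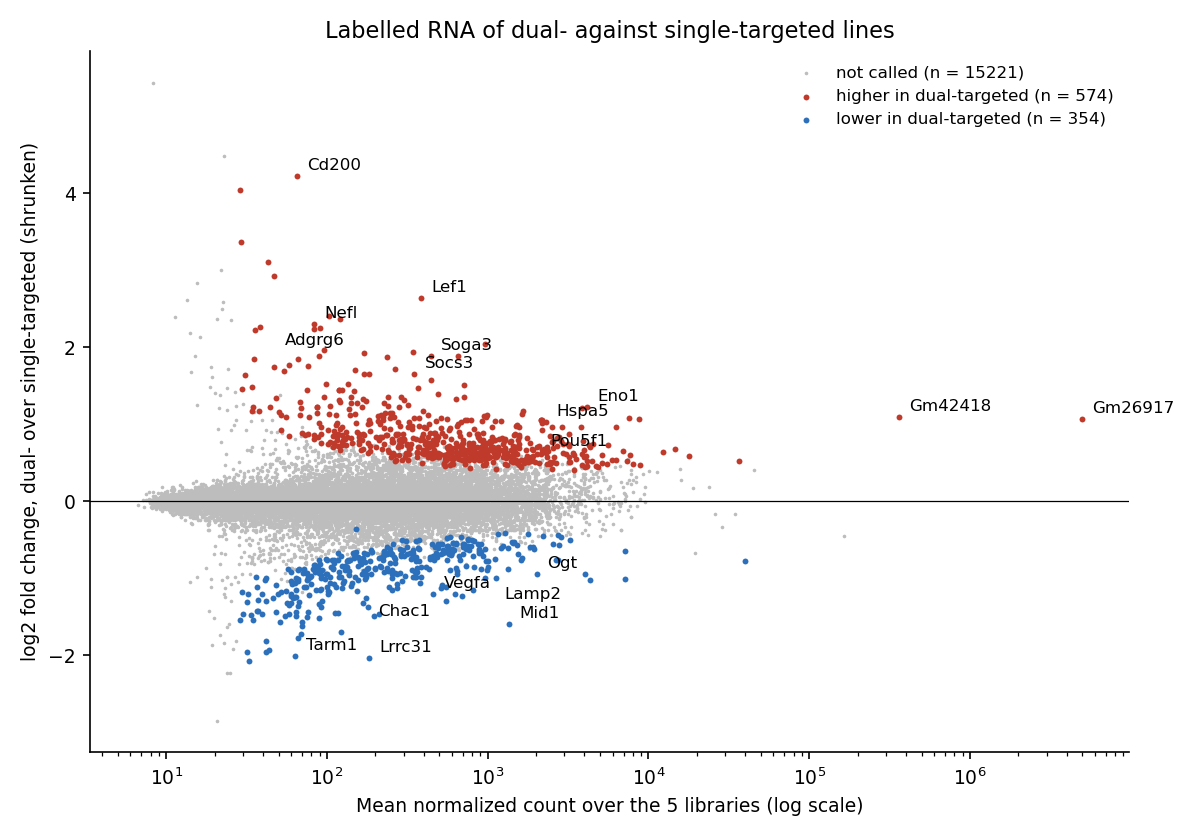
Mean normalized count over the 5 libraries (x, log scale) against the shrunken log2 fold change of dual- over single-targeted lines (y), 1 point per gene of the authors' deposited table. Red points (574) were called higher and blue points (354) lower at an adjusted p of 0.05, and Gm26917 and Gm42418 stand apart on the right.

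The called genes were moderate in size of change. The median log2 fold change was 0.752 among genes called higher and -0.871 among genes called lower, and 135 and 111 of them reached an absolute value of 1. Genes called higher had a median mean count of 599, against 224 for genes called lower and 218 for all genes tested. The clones and the H3f3b A/A dual line were over 2-fold apart in rebuilt mean at 392 of 11405 tested genes whose mean count reached 50 (3.44%). Among the 885 called genes that could be checked they were so at 8. Calls favour genes with little spread between the lines of a group, so that smaller share is no evidence that the dual-targeted genotypes concur. Which of the 2 single-targeted lines set a value was not analysed here.

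The gene with the lowest adjusted p was Lef1 (chromosome 3, 131110471 to 131224356), which encodes a transcription factor that carries Wnt signals to DNA. Its rebuilt level was 94.2 normalized counts in single-targeted lines, 673 in the clones and 497 in the H3f3b A/A dual line, beside 174 in wildtype. Both dual-targeted genotypes were therefore above both other levels, and the log2 fold change of Lef1 was 2.64 ± 0.30 in the authors' deposited table (adjusted p = 3e-16). Against wildtype, in tables that share these libraries, Lef1 had 1.80 ± 0.21 in dual-targeted lines (adjusted p = 1.4e-15) and -0.59 ± 0.36 in single-targeted lines (adjusted p = 0.0964) per the authors' deposited tables.

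Other large rises were of genes with varied roles. Adgrg6, an adhesion G protein-coupled receptor known from myelination, stood at 16.3 in wildtype, 62.3 in single-targeted lines, 232 in the clones and 305 in the H3f3b A/A dual line, and rose by a log2 fold change of 1.92 ± 0.34 in the authors' deposited table (adjusted p = 1.61e-06). Soga3 showed the same order, at 59.6, 160, 765 and 483 (1.89 ± 0.44 in the authors' deposited table, adjusted p = 0.000237). For both genes the level rose from wildtype through single-targeted to dual-targeted lines, and the single-targeted comparison with wildtype passed too, at 1.71 ± 0.63 for Adgrg6 (adjusted p = 0.0141) and 1.23 ± 0.45 for Soga3 (adjusted p = 0.0155) per the authors' deposited table. Zfp423, a zinc finger factor of BMP signalling and neural development, stood at 342 in single-targeted lines, 774 in the clones and 713 in the H3f3b A/A dual line (1.07 ± 0.21 in the authors' deposited table, adjusted p = 2.42e-05).

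Nefl, the light chain of neurofilaments, had a rebuilt level of 21.5 in single-targeted lines, 102 in the clones and 190 in the H3f3b A/A dual line (2.30 ± 0.65 in the authors' deposited table, adjusted p = 0.00205). Phlda1, which is induced by growth factor signalling, went from 30.2 to 125 and 158 in the same order (1.89 ± 0.58 in the authors' deposited table, adjusted p = 0.00373). Fam25c stood at 27.4, 188 and 116 (2.41 ± 0.48 in the authors' deposited table, adjusted p = 2.42e-05), and Mroh6 at 32.8, 154 and 131 (1.96 ± 0.47, adjusted p = 0.000337). In each of these 4 the clones and the H3f3b A/A dual line were both above the single-targeted mean. Platr3, a long noncoding RNA gene named for its expression in pluripotent cells, was less even, at 177 in single-targeted lines, 1350 in the clones and 383 in the H3f3b A/A dual line (1.89 ± 1.02 in the authors' deposited table, adjusted p = 0.0254). Without the H3f3b A/A dual line its rebuilt log2 ratio was 2.93. Cd200, which encodes a surface glycoprotein that restrains immune cells, had the largest deposited rise under the rule for named genes but also a wide error, 4.23 ± 2.11 in the authors' deposited table (adjusted p = 0.0163, mean count 65.04), and was not in all 4 tables, so its level by group could not be rebuilt.

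**Figure D2:**
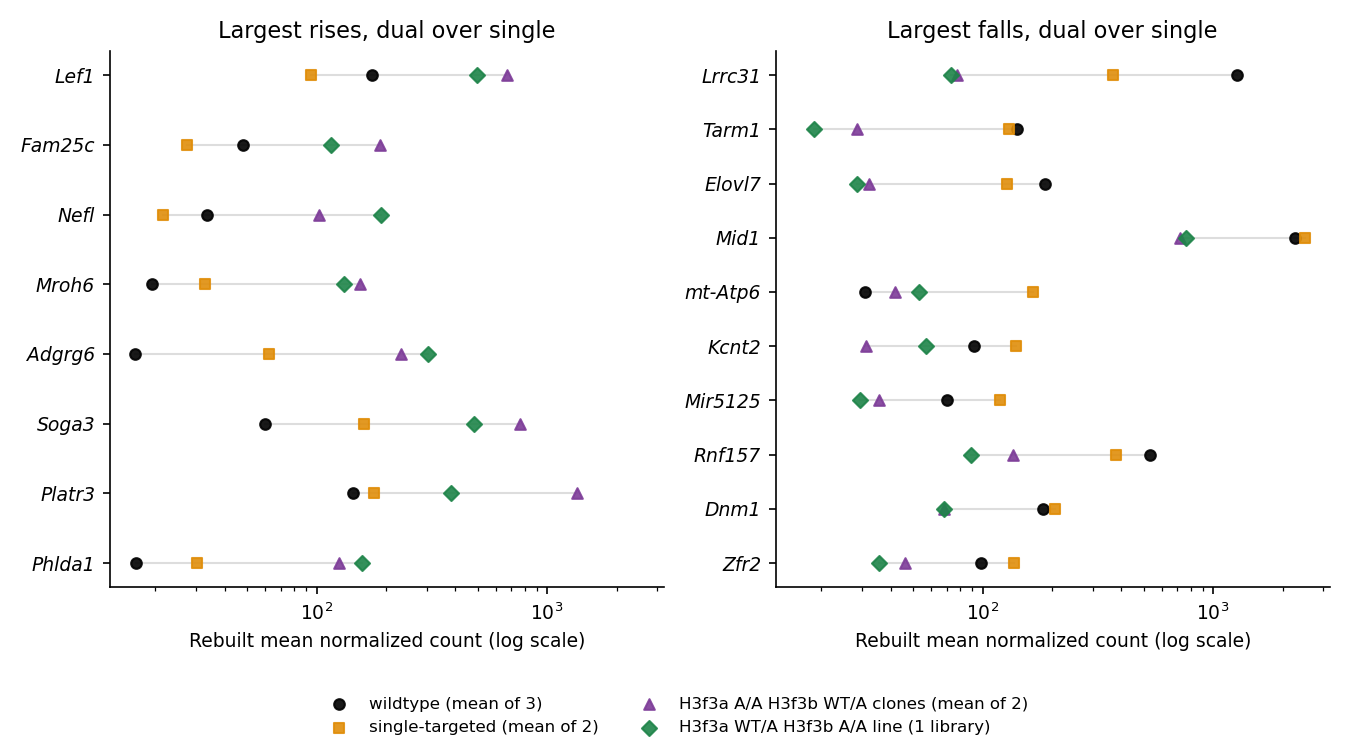
Rebuilt mean normalized counts (x, log scale) of genes named for their large rises (left) and falls (right), 1 row per gene, with no error bars because rebuilt means carry none. Points show wildtype, single-targeted, clone and H3f3b A/A dual line levels, and in every row the dual-targeted points lie on 1 side of the single-targeted point; Cd200 could not be rebuilt and is left out.

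Under the rule for named genes the largest fall was that of Lrrc31, a leucine-rich repeat gene on chromosome 3 (30679058 to 30699843). Its rebuilt level was 1272 in wildtype, 368 in single-targeted lines, 77.6 in the clones and 72.9 in the H3f3b A/A dual line. The dual-targeted genotypes were nearly level with each other and far below both other groups, with a log2 fold change of -2.04 ± 0.34 in the authors' deposited table (adjusted p = 2.47e-07). The single-targeted comparison with wildtype also passed for Lrrc31, at -1.74 ± 0.24 in the authors' deposited table (adjusted p = 4.81e-11). Tarm1, a receptor of myeloid cells, had 130 in single-targeted lines, 28.5 in the clones and 18.5 in the H3f3b A/A dual line (-2.01 ± 0.59 in the authors' deposited table, adjusted p = 0.00381). Elovl7, which lengthens long-chain fatty acids, had 128, 32.2 and 28.5 (-1.78 ± 0.45 in the authors' deposited table, adjusted p = 0.000962). The wildtype level of Tarm1, 141, was near that of the single-targeted lines, while that of Elovl7, 187, was above it. Rnf157, a ubiquitin ligase gene, went from 379 in single-targeted lines to 135 and 88.8 (-1.46 ± 0.35 in the authors' deposited table, adjusted p = 0.000477), and Dnm1, a dynamin of membrane fission, from 207 to 68.2 and 67.8 (-1.45 ± 0.32, adjusted p = 0.000216).

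Of the 5 falls with the lowest adjusted p, 4 were genes of the X chromosome, of which these male cells carry 1 copy. Mid1 (169685199 to 170005736), a microtubule-associated ubiquitin ligase, had 2491 in single-targeted lines, 720 in the clones and 766 in the H3f3b A/A dual line (-1.60 ± 0.33 in the authors' deposited table, adjusted p = 8.29e-05). Lamp2, a lysosomal membrane protein, went from 1748 to 822 and 800, and fell by 1.00 on the log2 scale in the authors' deposited table, with an SE of 0.20 (adjusted p = 6.23e-05). Usp11, a deubiquitinase, went from 884 to 400 and 330 (-1.11 ± 0.23 in the authors' deposited table, adjusted p = 0.000127). Ogt, the enzyme that adds N-acetylglucosamine to nuclear and cytosolic proteins, went from 3100 to 1375 and 1721 (-0.95 ± 0.20 in the authors' deposited table, adjusted p = 0.000146). Wildtype levels of these 4 lay near the single-targeted ones, at 2253 for Mid1, 1796 for Lamp2, 999 for Usp11 and 3419 for Ogt. The chromosome as a whole did not move with them: of 377 X-linked genes tested, 13 were called higher and 14 lower, and the median log2 fold change was -0.00.

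Chromosome 14 differed among the dual-targeted lines. Over its tested genes that could be rebuilt and whose mean count reached 50, the median log2 ratio of the clones over the H3f3b A/A dual line was -0.65. The other chromosomes gave values from -0.08 to 0.05. Of 432 tested genes on chromosome 14, 6 were called higher and 15 lower. Dgkh, a diacylglycerol kinase, had 1358 in single-targeted lines, 400 in the clones and 745 in the H3f3b A/A dual line (-1.16 ± 0.38 in the authors' deposited table, adjusted p = 0.00826), and Pck2, a mitochondrial enzyme that makes phosphoenolpyruvate, had 1022, 345 and 649 (-0.95 ± 0.37, adjusted p = 0.0188). In both genes the H3f3b A/A dual line too was below the single-targeted mean. The part of chromosome dosage in calls on this chromosome was not tested; leaving out chromosomes 8, 14 and Y is among the alternatives given at the end.

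Gene lists of pathways, complexes and cell states were read by counts and medians beside all genes tested, whose median log2 fold change was 0.0014. Of 47 lists, 6 had no call. A trend with gene length runs through the comparison and is described further on, so the counts of calls made after that trend was taken out are given beside many of the lists. Those counts can hold genes that were not called before. Taken separately over the single-targeted lines, rebuilt list medians on the log2 scale were 0.82 in the clones and 0.74 in the H3f3b A/A dual line for glycolysis, 0.62 and 0.67 for endoplasmic reticulum chaperones, 0.62 and 0.49 for heat shock genes, 0.72 and 0.54 for cytosolic ribosomal proteins, and -0.29 and -0.46 for the ATF4 list. Both values of a list share the single-targeted lines, and neither carries a test.

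**Figure D3:**
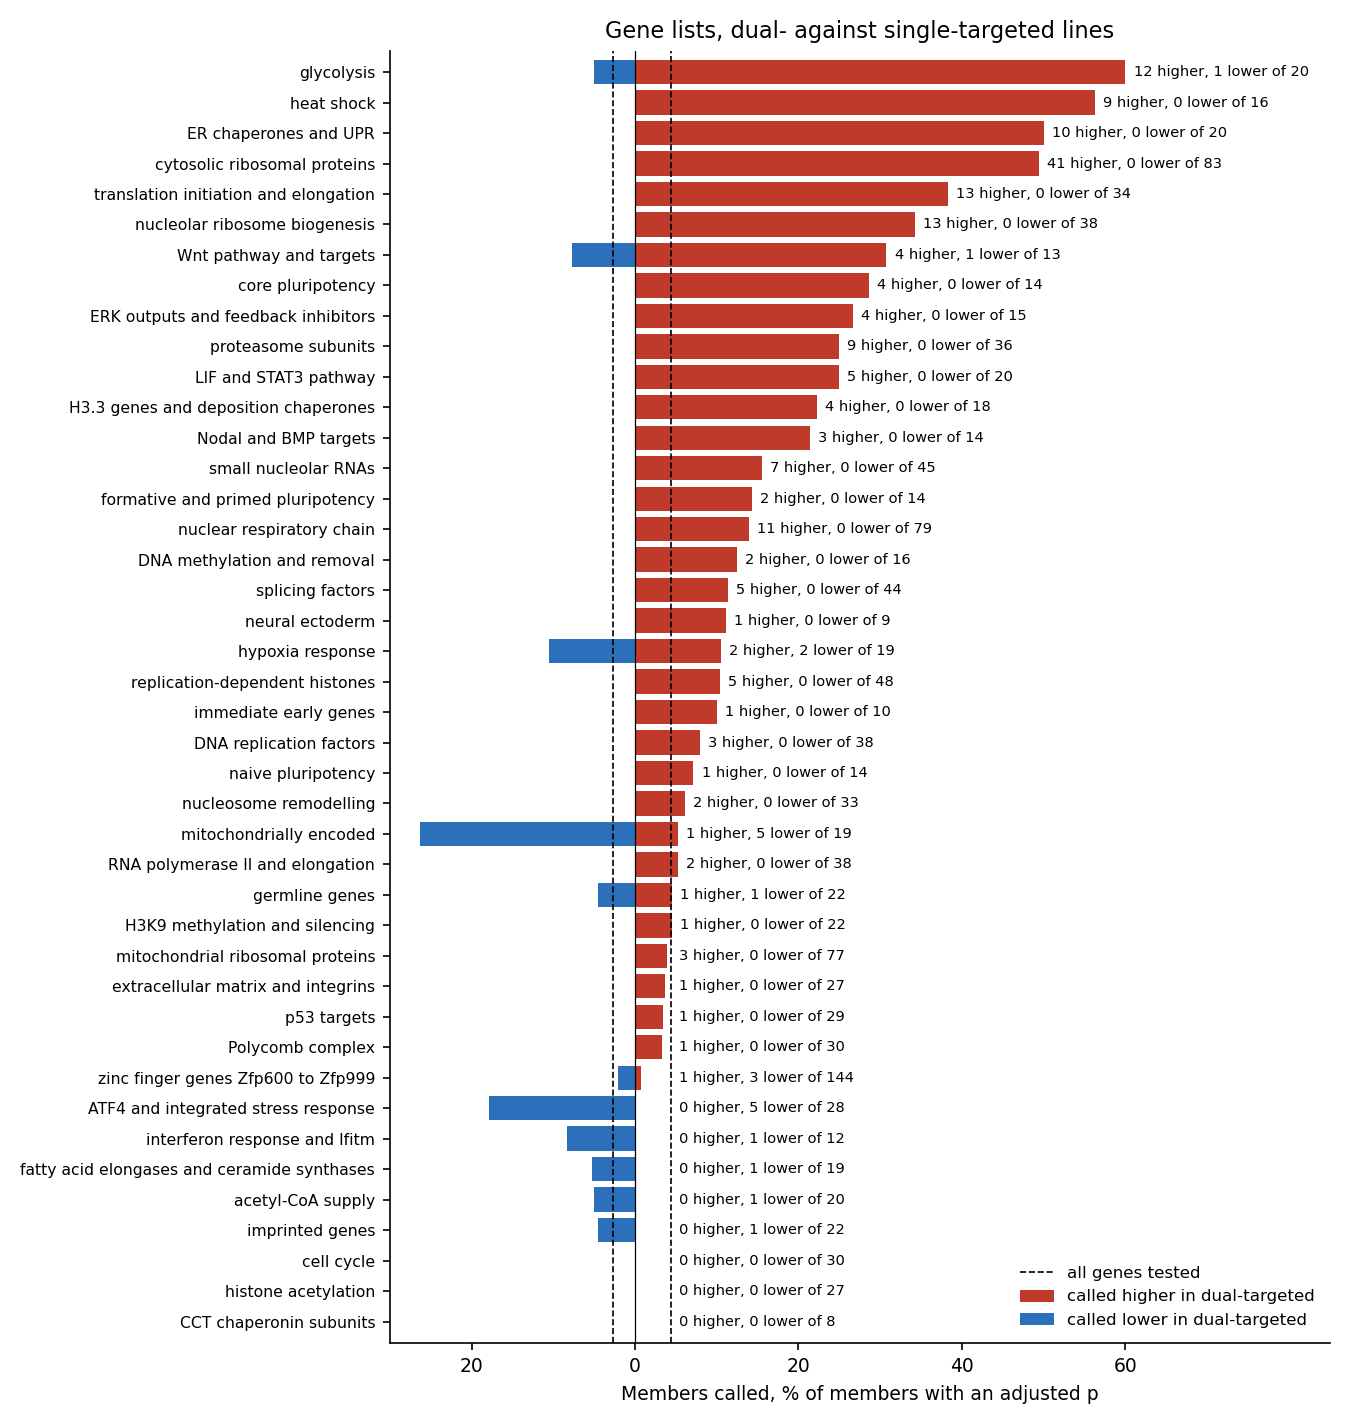
Share of members called higher (red, to the right) and lower (blue, to the left) for each list with at least 8 members that had an adjusted p, in % of those members. Dashed lines mark the shares over all genes tested (4.37% and 2.69%); glycolysis, heat shock, endoplasmic reticulum chaperones and cytosolic ribosomal proteins lie farthest to the right, and mitochondrially encoded genes and the ATF4 list farthest to the left.

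Glycolysis, which splits glucose into pyruvate, was the list with the largest share of calls among those plotted. Of 21 measured genes 12 rose, 1 fell, and the median was 0.73 (10 and 1 with the length trend taken out). The enzymes that rose spanned the pathway from glucose uptake to lactate export. At its entry, the glucose transporter Slc2a1 rose by 0.81 ± 0.29 (adjusted p = 0.014) and hexokinase Hk2 by 0.53 ± 0.20 (adjusted p = 0.0239) per the authors' deposited table. In its middle and lower steps phosphofructokinase Pfkl (0.87 ± 0.36, adjusted p = 0.0209), aldolase Aldoa (1.05 ± 0.31, adjusted p = 0.00378), triosephosphate isomerase Tpi1 (1.08 ± 0.37, adjusted p = 0.00914), Pgk1 (0.87 ± 0.24, adjusted p = 0.00282) and pyruvate kinase Pkm (1.08 ± 0.29, adjusted p = 0.00148) rose per the authors' deposited table. At its end, lactate dehydrogenase Ldha rose by 1.17 ± 0.28 (adjusted p = 0.000477) and the lactate exporter Slc16a3 by 0.80 ± 0.37 (adjusted p = 0.0314) per the authors' deposited table.

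The enolases went opposite ways. Eno1 (chromosome 4, 150236721 to 150248879), the form found in most cells, had a rebuilt level of 2298 in single-targeted lines, 5521 in the clones and 6295 in the H3f3b A/A dual line (1.22 ± 0.30 in the authors' deposited table, adjusted p = 0.000725). Eno2 (chromosome 6, 124760053 to 124769673), the neuronal form, had 170, 69.6 and 54.1 (-1.17 ± 0.38 in the authors' deposited table, adjusted p = 0.00768). The wildtype level of Eno1, 3469, lay between the single- and dual-targeted levels, and the same held for Ldha, with 1400 in wildtype, 940 in single-targeted lines, 2061 in the clones and 2692 in the H3f3b A/A dual line. Against wildtype the single-targeted value of Ldha was -0.42 ± 0.23 (adjusted p = 0.12) and the dual-targeted value 0.64 ± 0.21 (adjusted p = 0.00476) per the authors' deposited tables. For Tpi1 and Pfkl the single-targeted comparison with wildtype passed, at -0.75 ± 0.31 (adjusted p = 0.0297) and -0.79 ± 0.30 (adjusted p = 0.0187) per the authors' deposited table, and the dual-targeted one did not, at 0.26 ± 0.22 (adjusted p = 0.347) and 0.09 ± 0.19 (adjusted p = 0.752). The rise of those 2 genes thus set a dual-targeted level near wildtype against a single-targeted level below it.

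The hypoxia response list, whose factors are known to act on several glycolytic genes, did not share the direction. Of its 20 genes 2 rose, 2 fell, and the median was 0.00 (2 and 2 with the length trend taken out). Kdm3a, a histone demethylase, rose by 0.68 ± 0.22 (adjusted p = 0.00849) and Pfkfb3, which makes an activator of phosphofructokinase, by 0.98 ± 0.38 (adjusted p = 0.0163) per the authors' deposited table. Vegfa, the vascular growth factor, fell from 760 in single-targeted lines to 272 in the clones and 356 in the H3f3b A/A dual line (-1.21 ± 0.27 in the authors' deposited table, adjusted p = 0.000237). Hif3a, a member of the hypoxia-inducible factor family, fell as well (-0.76 ± 0.30 in the authors' deposited table, adjusted p = 0.0215). The core of the hypoxia response element, ACGTG, stood in 12 of 20 glycolysis promoters and in 21.8% of all 27025 promoters. Among genes tested it stood in 30.1% of promoters, in 33.5% for genes called higher and in 30.8% for genes called lower.

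Chaperones of the endoplasmic reticulum, which fold secreted and membrane proteins, rose at 10 of 20 measured genes of their list, with 0 lower and a median of 0.42 (7 and 0 with the length trend taken out). Hspa5 (chromosome 2, 34771970 to 34777547), the main Hsp70 chaperone of that compartment, had a rebuilt level of 1415 in single-targeted lines, 3182 in the clones and 2930 in the H3f3b A/A dual line, beside 1268 in wildtype (1.03 ± 0.26 in the authors' deposited table, adjusted p = 0.000725). Hsp90b1, the Hsp90 of the same compartment, had 2398, 5186 and 5013 (0.97 ± 0.30 in the authors' deposited table, adjusted p = 0.00498). Calr, a lectin chaperone, rose by 0.96 ± 0.29 (adjusted p = 0.00476) and the disulfide isomerases Pdia4 by 0.80 ± 0.31 (adjusted p = 0.0197), Pdia3 by 0.61 ± 0.25 (adjusted p = 0.0279) and Pdia6 by 0.59 ± 0.24 (adjusted p = 0.03) per the authors' deposited table. Manf, Creld2, Dnajb11 and Hyou1, which encode further proteins of folding there, made up the rest of the calls, with 0.93 ± 0.27, 0.83 ± 0.37, 0.70 ± 0.25 and 0.66 ± 0.32 in the authors' deposited table. The degradation side of the response was not called: Herpud1 had -0.28 ± 0.26, Sel1l -0.15 ± 0.18, Edem1 0.05 ± 0.16 and the regulator Xbp1 0.17 ± 0.21 in the authors' deposited table. The element marked in the Hspa5 promoter above stood in 8 of 17 list promoters, those of Hspa5, Hsp90b1, Calr, Pdia6 and Creld2, which rose, and of Canx, Dnajc3 and Syvn1, which did not pass the test.

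Heat shock genes, whose products fold proteins in the cytosol and mitochondria, rose at 9 of 17 measured genes, with 0 lower and a median of 0.46 (4 and 0 with the length trend taken out). Hsph1 (chromosome 5, 149614287 to 149636376), a nucleotide exchange factor of Hsp70, had 1441 in single-targeted lines, 2947 in the clones and 2638 in the H3f3b A/A dual line (0.92 ± 0.20 in the authors' deposited table, adjusted p = 0.000147). The mitochondrial chaperonin genes Hspd1 (0.74 ± 0.24, adjusted p = 0.00765) and Hspe1 (0.77 ± 0.22, adjusted p = 0.00389) rose together per the authors' deposited table. The cytosolic Hsp90 genes Hsp90ab1 (0.64 ± 0.21, adjusted p = 0.0125) and Hsp90aa1 (0.47 ± 0.20, adjusted p = 0.0402) also rose per the authors' deposited table, with Hspa8, the constitutive Hsp70, at 0.46 ± 0.18 (adjusted p = 0.0349). Heat shock elements stood in 4 of 13 list promoters, those of Hsph1, Hspd1 and Hspe1, which rose, and of Chordc1, which did not pass. None of the 8 subunits of the CCT chaperonin, which folds actin and tubulin, passed the authors' DESeq2 test. Of these, 6 had an unadjusted p under 0.05 and all 8 lay above 0, with a median of 0.34. The closest was Cct5, at 0.48 ± 0.22 in the authors' deposited table (adjusted p = 0.0562).

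Genes of the integrated stress response, which the factor ATF4 drives when amino acids are short or unfolded protein builds up, gave falls and no rise. Of 28 genes 0 rose, 5 fell, and the median was -0.20 (0 and 7 with the length trend taken out). Chac1 (chromosome 2, 119351229 to 119354381), which breaks down glutathione, had a rebuilt level of 317 in single-targeted lines, 98 in the clones and 120 in the H3f3b A/A dual line, beside 234 in wildtype (-1.38 ± 0.38 in the authors' deposited table, adjusted p = 0.00222). Trib3, a pseudokinase that feeds back on ATF4, had 327, 181 and 141 (-0.72 ± 0.34 in the authors' deposited table, adjusted p = 0.0408). Psph, the last enzyme of serine synthesis, fell by 0.71 on the log2 scale, with an SE of 0.31 (adjusted p = 0.0349), and the lipoprotein receptor Vldlr had -1.31 ± 0.55 (adjusted p = 0.0215) per the authors' deposited table. Cebpb, a transcription factor of the C/EBP family, had 35.2 in wildtype, 124 in single-targeted lines, 51.2 in the clones and 31.8 in the H3f3b A/A dual line. Its fall (-1.12 ± 0.51 in the authors' deposited table, adjusted p = 0.0287) therefore set a dual-targeted level near wildtype against a single-targeted level above it, and the single-targeted comparison with wildtype gave 1.61 ± 0.43 (adjusted p = 0.00114) per the authors' deposited table.

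Atf4 itself had 0.12 ± 0.18, its effector Ddit3 -0.35 ± 0.28 and the asparagine synthetase gene Asns -0.21 ± 0.23 in the authors' deposited table, and none of them passed. The ATF4 element marked in the Chac1 promoter stood in 8 of 23 list promoters, those of Trib3, Chac1 and Vldlr, which fell, and of Asns, Slc7a11, Pycr1, Nupr1 and Aars, which did not pass the test. The promoters of Psph and Cebpb, which fell, did not hold it. Over all genes tested that had a promoter in the RefSeq table (9161), it stood in 2.66%, in 8 of 403 promoters of genes called higher and in 15 of 234 promoters of genes called lower.

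**Figure D4:**
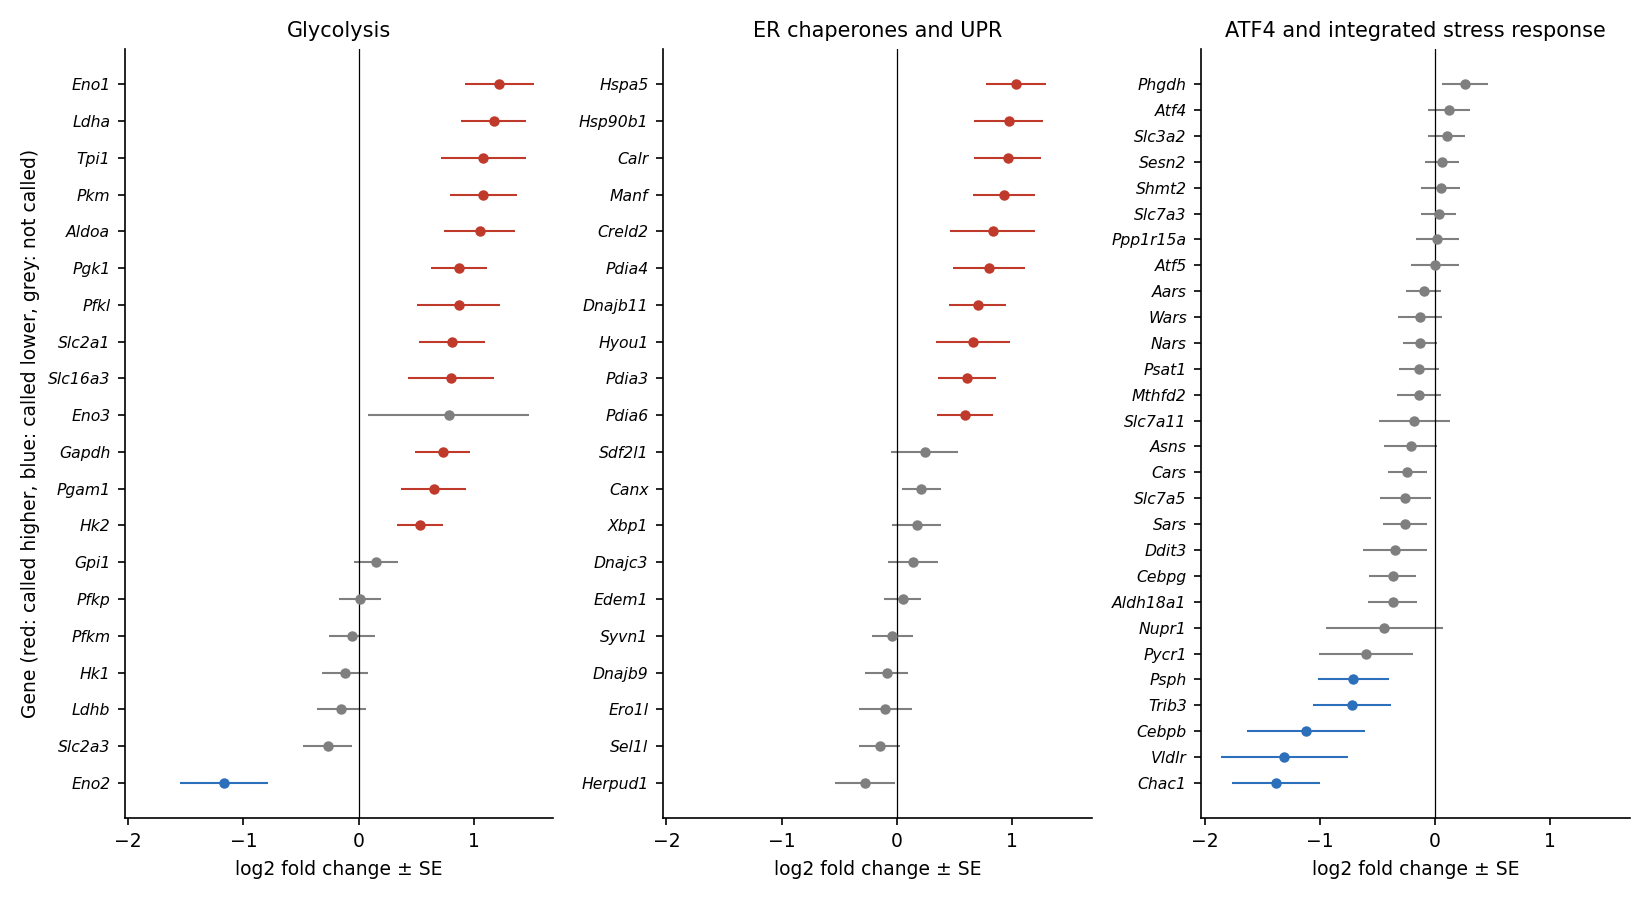
Shrunken log2 fold change ± SE of dual- over single-targeted lines (x) for the members with an adjusted p of 3 lists (1 row per gene), from the authors' deposited table. Red marks genes called higher, blue genes called lower and grey genes not called; 12 glycolysis genes and 10 endoplasmic reticulum genes are red, while 5 genes of the ATF4 list are blue and 0 are red.

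Core pluripotency genes, which hold embryonic stem cells in their state, rose at 4 of 14 members, with 0 lower and a median of 0.28 (2 and 0 with the length trend taken out). Pou5f1, which encodes OCT4, had 1677 in wildtype, 1357 in single-targeted lines, 2931 in the clones and 2912 in the H3f3b A/A dual line (1.02 ± 0.25 in the authors' deposited table, adjusted p = 0.000725). L1td1, an RNA-binding protein of pluripotent cells, had 5348 in single-targeted lines, 12654 in the clones and 10377 in the H3f3b A/A dual line (1.07 ± 0.25 in the authors' deposited table, adjusted p = 0.000477). Lin28a, which blocks let-7 maturation, rose by 0.67 ± 0.30 (adjusted p = 0.0356) and the zinc finger factor Sall4 by 0.58 ± 0.27 (adjusted p = 0.0431) per the authors' deposited table. Genes of naive pluripotency, the state of the early epiblast, gave 1 rise of 14, that of Gbx2 (1.00 ± 0.36 in the authors' deposited table, adjusted p = 0.0125), and Tcl1, a coactivator of AKT, just missed the threshold at -0.58 ± 0.28 (adjusted p = 0.0509). Of 14 formative and primed genes, which mark the state before gastrulation, 2 rose (median 0.28). These were Lef1, given above, and Foxd3, a forkhead factor, which had 40.1 in wildtype, 72.6 in single-targeted lines, 216 in the clones and 205 in the H3f3b A/A dual line (1.43 ± 0.31 in the authors' deposited table, adjusted p = 0.000146).

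LIF acts through its receptor and JAK kinases on STAT3, and of 22 genes of this pathway 5 rose and 0 fell (2 and 0 with the length trend taken out), while the median was -0.00. All 5 are known outputs. Socs3 (chromosome 11, 117966079 to 117970047), the feedback inhibitor of the receptor, had 51 in wildtype, 150 in single-targeted lines, 548 in the clones and 443 in the H3f3b A/A dual line (1.65 ± 0.34 in the authors' deposited table, adjusted p = 5.94e-05). Gadd45g had 9.74 in single-targeted lines, 53.4 in the clones and 75.1 in the H3f3b A/A dual line (2.26 ± 0.69 in the authors' deposited table, adjusted p = 0.00389), and Myc had 143, 326 and 548 (1.22 ± 0.48, adjusted p = 0.0152). The kinase gene Pim1 rose by 0.67 ± 0.30 (adjusted p = 0.036) and Cish, a relative of Socs3, by 0.80 ± 0.43 (adjusted p = 0.0455) per the authors' deposited table. The receptor genes Lifr (-0.04 ± 0.14) and Il6st (-0.05 ± 0.16), the kinase genes Jak1 (-0.21 ± 0.21) and Jak2 (-0.24 ± 0.31) and Stat3 itself (-0.05 ± 0.15) did not pass in the authors' deposited table. Nor did other members of the list, among them Bcl3 (0.62 ± 0.34), Pim3 (0.49 ± 0.27), Junb (0.17 ± 0.31), Socs2 (-0.07 ± 0.20), Sbno2 (-0.07 ± 0.17) and Gfpt2 (-0.10 ± 0.18). STAT sites stood in 3 of 19 list promoters, those of Socs3 and Cish, which rose, and of Sbno2, which did not pass. Among genes tested they stood in 7.97% of promoters, in 7.2% for genes called higher and in 5.56% for genes called lower.

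Of 18 outputs and feedback inhibitors of the ERK pathway, 4 rose and 0 fell (3 and 0 with the length trend taken out), with a median of 0.17. Spry2, an inhibitor of receptor tyrosine kinase signalling, had 738 in single-targeted lines, 1530 in the clones and 1809 in the H3f3b A/A dual line (1.04 ± 0.26 in the authors' deposited table, adjusted p = 0.000725). The ETS factor gene Etv1 rose by 1.03 ± 0.33 (adjusted p = 0.00608) per the authors' deposited table, and the others were Phlda1 and Myc, given above. Dusp6 (0.57 ± 0.30), Etv4 (0.17 ± 0.27), Etv5 (0.03 ± 0.14) and Spred2 (-0.02 ± 0.15), also outputs of this pathway, did not pass in the authors' deposited table. Of 15 Wnt genes 4 rose and 1 fell (2 and 0 with the length trend taken out), with a median of -0.00. Of the 13 with an adjusted p, 7 lay above 0. Lef1 was joined by the targets Notum (1.15 ± 0.48, adjusted p = 0.019) and Axin2 (0.70 ± 0.27, adjusted p = 0.0209), both feedback inhibitors, and by the receptor gene Fzd7 (0.79 ± 0.31, adjusted p = 0.0188) per the authors' deposited table. Tcf7l2, a relative of Lef1, fell (-0.80 ± 0.36 in the authors' deposited table, adjusted p = 0.0326). Among other members, Znrf3 (-0.25 ± 0.21), Tcf7 (-0.21 ± 0.27) and Nkd2 (-0.04 ± 0.22) did not pass in the authors' deposited table. The rebuilt level of Notum was 340 in wildtype, 130 in single-targeted lines, 316 in the clones and 405 in the H3f3b A/A dual line, so the single-targeted lines were the low group. They were so for Axin2 too, which had 308, 200, 370 and 320 in the same order.

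Among 16 Nodal and BMP genes 3 rose and 0 fell (1 and 0 with the length trend taken out). Id3, an inhibitor of helix-loop-helix factors and a target of BMP signals, had 108 in single-targeted lines, 377 in the clones and 436 in the H3f3b A/A dual line (1.72 ± 0.40 in the authors' deposited table, adjusted p = 0.000237). Its relative Id1 rose by 1.15 ± 0.63 (adjusted p = 0.0361) and the ligand gene Nodal by 0.52 ± 0.23 (adjusted p = 0.0475) per the authors' deposited table. Lefty1 (0.02 ± 0.24) and Lefty2 (-0.01 ± 0.24), which inhibit Nodal, did not pass in the authors' deposited table. Of 29 p53 target genes 1 rose, the nuclease gene Aen (0.56 ± 0.22 in the authors' deposited table, adjusted p = 0.0259), and 0 fell (0 and 0 with the length trend taken out).

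Lists of genes for making and turning over protein held many of the rises. Cytosolic ribosomal protein genes rose at 41 of 84 measured members, with 0 lower and a median of 0.51 (22 and 0 with the length trend taken out), and all 83 members with an adjusted p lay above 0. The lowest adjusted p in the list was that of Rps15, which had 535 in single-targeted lines, 1054 in the clones and 1190 in the H3f3b A/A dual line (0.94 ± 0.26 in the authors' deposited table, adjusted p = 0.00205). Rps28 had 1587, 3641 and 2826 (0.97 ± 0.28 in the authors' deposited table, adjusted p = 0.00383), and both groups of dual-targeted levels were again above the single-targeted mean. Reads of ribosomal protein genes can be shared with their many processed pseudogenes, so single members are uncertain. Of 38 genes for nucleolar ribosome biogenesis 13 rose and 0 fell (3 and 0 with the length trend taken out), with a median of 0.42. Nhp2, a core protein of H/ACA ribonucleoproteins, had 375, 986 and 1059 (1.35 ± 0.27 in the authors' deposited table, adjusted p = 4.4e-05), and Nolc1, which binds such particles, had 824, 1520 and 1543 (0.81 ± 0.23, adjusted p = 0.00333).

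Translation initiation and elongation factors rose at 13 of 34 members with 0 lower and a median of 0.40 (7 and 0 with the length trend taken out). Eif5a, which helps ribosomes through difficult stretches, had 1873 in single-targeted lines, 3814 in the clones and 3895 in the H3f3b A/A dual line (0.97 ± 0.21 in the authors' deposited table, adjusted p = 0.000119). Eif6, which keeps ribosomal subunits apart, had 410, 918 and 793 (1.01 ± 0.24 in the authors' deposited table, adjusted p = 0.000477). Proteasome subunits rose at 9 of 37 genes with 0 lower (4 and 0 with the length trend taken out), led by Psmb6, a catalytic subunit (0.79 ± 0.25 in the authors' deposited table, adjusted p = 0.00723). Nuclear genes of the respiratory chain rose at 11 of 80 with 0 lower (2 and 0 with the length trend taken out), among them Cox7c (0.86 ± 0.18, adjusted p = 0.000129) and Atp5k (1.65 ± 0.36, adjusted p = 0.000146) per the authors' deposited table. Mitochondrial ribosomal proteins gave 3 rises of 77 (1 with the length trend taken out), a share under the 4.37% called higher over all genes tested. Splicing factors gave 5 of 44 (4 with the length trend taken out).

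Genes of the mitochondrial genome encode subunits of the respiratory chain and the RNAs to translate them. Of 22 mitochondrially encoded genes 1 rose, 5 fell, and the median was -0.18 (0 and 5 with the length trend taken out). mt-Atp6, a subunit of ATP synthase, had 31 in wildtype, 166 in single-targeted lines, 41.8 in the clones and 52.9 in the H3f3b A/A dual line (-1.52 ± 0.57 in the authors' deposited table, adjusted p = 0.0141). The cytochrome oxidase subunit genes mt-Co2 (36.2, 169, 57.3 and 76.3 in the same order) and mt-Co3 (24.9, 108, 29.4 and 41.9) fell by 1.12 and 1.32 on the log2 scale in the authors' deposited table, with adjusted p of 0.0198 and 0.0224. The single-targeted lines were the high group for all 3. Against wildtype they gave 2.16 ± 0.36 for mt-Co2 (adjusted p = 1.21e-07) and 1.95 ± 0.48 for mt-Co3 (adjusted p = 0.000465), but 0.10 ± 0.22 for mt-Atp6 (adjusted p = 0.128) per the authors' deposited table. The ribosomal RNA genes mt-Rnr1 and mt-Rnr2 were the 2 genes with no p in the authors' deposited table. Their rebuilt levels were 103 and 291 in single-targeted lines, 3019 and 5426 in the clones, and 73.4 and 238 in the H3f3b A/A dual line, so only the clones were high among these levels.

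Replication-dependent histone genes divided by class. All 5 linker histone H1 genes rose, with a median of 0.89, and 0 of the 43 core histone genes with an adjusted p were called by the authors' DESeq2 fit (4 had an unadjusted p under 0.05), with a median of -0.024. Hist1h1a had 2222 in wildtype, 974 in single-targeted lines, 2279 in the clones and 2157 in the H3f3b A/A dual line (1.13 ± 0.25 in the authors' deposited table, adjusted p = 0.000146). Hist1h1e had 414, 174, 508 and 570 in that order (1.47 ± 0.37 in the authors' deposited table, adjusted p = 0.000725). For Hist1h1a and Hist1h1e alike, the single-targeted lines were the low group and the dual-targeted lines were near wildtype or above it. Hist1h1b, Hist1h1d and Hist1h1c rose by 0.89 ± 0.37, 0.71 ± 0.30 and 0.61 ± 0.26 in the authors' deposited table. Near-identical histone copies can share reads, which makes single members uncertain. With the length trend taken out, 3 histone genes rose.

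Lists of chromatin regulators are given beside the 7.06% called over all genes tested. Of 28 measured genes that write, erase or read histone acetylation 0 passed the authors' DESeq2 test in either direction (5 had an unadjusted p under 0.05), with a median of 0.02. The closest to it was Brd2, a reader of acetylated histones, at 0.43 ± 0.22 in the authors' deposited table (adjusted p = 0.084). Among 20 enzymes of acetyl-CoA supply 1 fell, Acss1, which makes acetyl-CoA from acetate in mitochondria. It had 529 in wildtype, 111 in single-targeted lines, 30.8 in the clones and 62.4 in the H3f3b A/A dual line (-1.04 ± 0.46 in the authors' deposited table, adjusted p = 0.0276). Polycomb genes gave 1 rise of 32, Epop, an accessory factor of PRC2 (0.89 ± 0.24 in the authors' deposited table, adjusted p = 0.00265). Genes of H3K9 methylation gave 1 of 22, Cbx3, which encodes a heterochromatin protein 1 (0.51 ± 0.21 in the authors' deposited table, adjusted p = 0.0359). DNA methylation genes gave 2 of 16, Mbd3 (1.17 ± 0.34, adjusted p = 0.00337) and Dnmt3l, a cofactor of the de novo methyltransferases (0.76 ± 0.27, adjusted p = 0.0131), in the authors' deposited table. Nucleosome remodelling gave 2 of 33, Smarcd1 (0.58 ± 0.21, adjusted p = 0.02) and Chd4 (0.46 ± 0.18, adjusted p = 0.0347), in the authors' deposited table. RNA polymerase II and elongation factors gave 2 of 38, DNA replication factors 3 of 38 and cell cycle genes 0 of 31 (9 with an unadjusted p under 0.05) in the authors' DESeq2 fit. With the length trend taken out, the Polycomb, DNA methylation and nucleosome remodelling lists held 2 higher genes each. The RNA polymerase II list then held 1, while the acetyl-CoA, H3K9 methylation and DNA replication lists held 0 calls.

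Interferon, imprinted, germline, zinc finger and matrix lists gave from 1 to 4 calls each, beside 7.06% called over all genes tested. Their members with an adjusted p numbered 12, 22, 22, 144 and 27 in that order. Stat2, a mediator of interferon signals, had 389 in single-targeted lines, 174 in the clones and 212 in the H3f3b A/A dual line (-0.89 ± 0.28 in the authors' deposited table, adjusted p = 0.00657), the 1 call among 17 measured interferon genes, of which 12 had an adjusted p. The imprinted noncoding RNA gene Peg13 fell (-1.12 ± 0.63 in the authors' deposited table, adjusted p = 0.0462), 1 of 26. Of 28 germline genes Nanos3 rose (1.12 ± 0.38, adjusted p = 0.0088) and Sycp3, of the meiotic chromosome axis, fell (-0.67 ± 0.30, adjusted p = 0.0387) per the authors' deposited table. Among 154 zinc finger genes from Zfp600 to Zfp999, 1 rose and 3 fell, Zfp811 the most (-1.18 ± 0.37 in the authors' deposited table, adjusted p = 0.00608). Sparc, a secreted matrix protein, was the 1 call of 29 matrix and integrin genes (0.74 ± 0.26 in the authors' deposited table, adjusted p = 0.0147).

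Fold change varied with gene length. Protein-coding genes called higher had a median length of 9.88 kb, those called lower 61.8 kb, and all tested 25.6 kb. With protein-coding genes cut by length into 5 equal bins, in the shortest bin, up to 9.3 kb, 233 of 2200 were called higher and 16 lower, with a median log2 fold change of 0.13. In the longest bin, from 71.4 kb, 37 of 2199 were called higher and 125 lower, with a median of -0.11. The 3 bins between them stepped from one to the other, with medians of 0.067, 0.0075 and -0.056. Across 10996 protein-coding genes Spearman's rho between length and log2 fold change was -0.418, and between mean count and log2 fold change 0.111, as a description over genes that share the same libraries. With a smooth trend on length taken out, 348 genes were higher and 276 lower of 13002, and 493 of these calls were shared with the deposited ones. Ribosomal protein genes are short, with a median of 3.24 kb. The glycolysis list has a median of 16.6 kb and the endoplasmic reticulum list 16.3 kb, also below the 25.6 kb of all protein-coding genes tested.

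**Figure D5:**
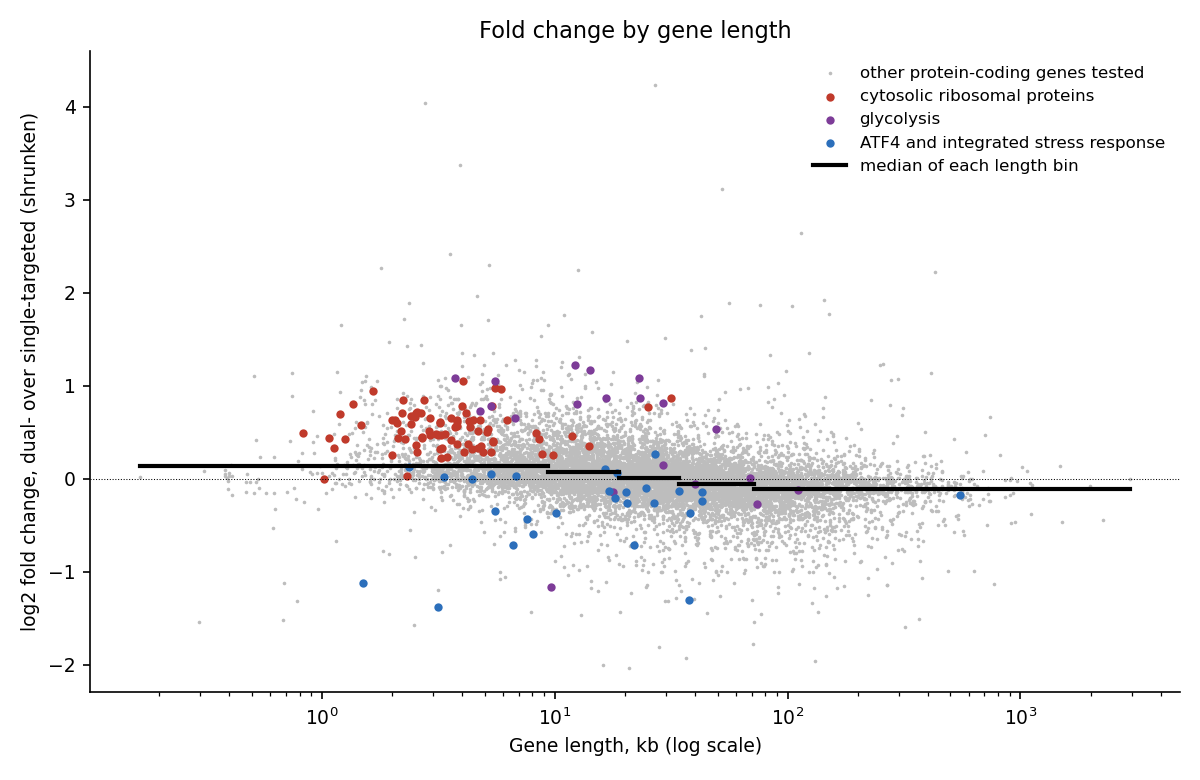
Gene length in kb (x, log scale) against the shrunken log2 fold change of dual- over single-targeted lines (y) for protein-coding genes with an adjusted p, from the authors' deposited table. Black bars are the medians of the 5 length bins, which step from 0.13 to -0.11, and coloured points are cytosolic ribosomal protein, glycolysis and ATF4 list genes.

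Gene classes were counted too, beside 4.37% called higher and 2.69% called lower over all genes tested. Models of the TEC class, which GENCODE lists without experimental support, were called lower at 44 of 777 (5.66%) and higher at 7 (0.901%). Sense intronic RNA genes were called lower at 5 of 123 (4.07%) and higher at 0. Small nucleolar RNA genes were called higher at 9 of 97 (9.28%) and lower at 1 (1.03%), and long intergenic RNA genes higher at 20 of 238 (8.4%) and lower at 4 (1.68%). Of 767 tested TEC and sense intronic features that lie inside a tested protein-coding gene of the same strand, 44 were called lower and 5 higher. These calls are among those of the 2 classes just given. The median log2 fold change of the 767 features was -0.12, beside -0.1 for their hosts (547 genes, each counted once per feature). Of the 44, 7 had a host that was also called lower. Whether counting used strand was not given in the sources used here. Reads of a feature and of its host cannot be told apart.

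Gm26917 (chromosome 17, 39843013 to 39846341) and its neighbour Gm42418 (39846958 to 39848788) took a large part of all counts. GENCODE lists both as long intergenic RNA genes, and the RefSeq gene table gives Gm42418 as another name of Rn18s-rs5, a ribosomal RNA pseudogene. Gm26917 alone made up 40.6% of the summed mean counts of the authors' deposited table. Together they held 31.3% of the summed rebuilt counts in single-targeted lines, 47.8% in the clones and 52.3% in the H3f3b A/A dual line, beside 34.7% in wildtype. Gm26917 rose by 1.07 ± 0.21 (adjusted p = 2.42e-05) and Gm42418 by 1.09 ± 0.20 (adjusted p = 1.11e-05) per the authors' deposited table. This share moved with the groups, and its part in the other results was not tested.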

How the data were processed

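TT-seq libraries of 4sU-labelled RNA from 2 single-targeted and 3 dual-targeted lines were compared. Per the submitters' processing notes the tools, listed with no version, were STAR, SAMtools, featureCounts, DESeq2 and deepTools. The builds named there are mm10 and GRCm38.p6. The files held 4 tables of the authors' own DESeq2 comparisons. The values in them are, per the file headers, the authors' mean normalized counts (a signal averaged over the libraries compared), log2 fold changes with standard errors, and p-values with adjusted p-values. The deposited log2 fold changes are read as shrunken, and the estimator was not given in the sources used here. An empty adjusted p (3008 genes, all but 2 with a mean count at or under 27.3) was kept empty. The threshold for a call was an adjusted p under 0.05.

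The files gave 0 columns of values per library, so depth is unknown and no test was run beyond the authors'. Group means were rebuilt by subtraction from the mean counts of the 4 tables, after scales of 0.986, 1.05 and 0.957 set the median gene of each group equal to wildtype, over 15571 genes in all 4 tables. Of those genes 2 came out below 0 in the line with H3f3b A/A and 1 mutant H3f3a allele, and ratios used a floor of 1 count. The length trend was a lowess curve (fraction 0.3) of the signed z from the deposited p on log10 gene length, and p-values were recomputed with Benjamini-Hochberg adjustment. The steps were tested on simulated data.

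GENCODE mouse release 21 gave positions, classes and lengths and held 98.7% of the symbols, while promoters came from RefSeq. The rule for named genes took both H3.3 genes, and, from called genes whose mean count reached 50 (predicted or unnamed genes left out), the 10 largest rises and falls and the 5 lowest adjusted p in each direction. It also took up to 4 genes of every list, in order of adjusted p. Not every gene that met the rule is reported here. Other genes were named after their values were seen. The members and lists were chosen with earlier results of these data known. Computations ran in Python 3.11.15 with statsmodels 0.14.6, pandas 2.3.3, numpy 2.4.6, matplotlib 3.10.9 and scipy 1.17.1.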

Additional observations from a re-analysis of the deposited data

How the results depend on the processing

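At an adjusted p under 0.01 the calls were 178 higher and 88 lower, under 0.1 they were 896 and 644, and with an absolute log2 fold change of 1 or more 135 and 111. With the trend on gene length taken out, 348 genes were higher, and the count of lower genes stayed within 1.5 times the reported one, as did both counts under the other alternatives (adjustment over every gene with a p-value, a mean count of 50 or more, protein-coding genes, and leaving out chromosomes 8, 14 and Y). The length alternative for the lists was chosen after seeing the data. It moved the count of higher members by more than 1.5 times in 25 of 37 lists and that of lower members in 4 of 12. Taken from rebuilt means, 183 of 191 named genes stayed within 1 SE of the deposited value, and 167 of 191 did so without the H3f3b A/A dual line. None of the called genes among those 191 changed sign under either, and both alternatives use libraries that made the calls. The other 4 lines could not be left out, because values per line were not analysed here. No paired analysis was possible because the tables hold no values per library and the labels give the mutant groups no shared replicate numbers (those used here for mutant lines only name a line). Depth limits precision only through the deposited standard errors.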
